A study of Rattus norvegicus with 8 samples.

Results

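Ets1, Trps1, Tcf12, Arnt, Ppp2r2a and Pik3r1 are genes whose messages have been reported as targets of miR-221 and miR-222 in cells other than cardiomyocytes, and their levels were examined here in heart muscle cells given extra miR-222. They are 6 of the 14506 genes that could be followed on the arrays. Each was represented by the probe set, a group of probes read out as a single value, that the platform annotation pairs with that gene alone, and all 6 had 1 such probe set. The cells were ventricular cardiomyocytes isolated from newborn rats, kept in culture dishes and transfected with a lipid reagent. The miR-222 group held 4 arrays of cells that had received 0.4 µM of a miR-222 precursor, a synthetic RNA that cells process into the mature microRNA. The control group held 4 arrays of cells that had received a control precursor of scrambled sequence at the same dose. RNA was taken from both groups after 48 h. No deletion or other treatment is named for either group.

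A microRNA directs a silencing complex to messages that carry a match to its seed, the bases near its 5′ end, and such messages are then translated less and often degraded. miR-221 and miR-222 lie beside each other on the X chromosome and are processed from hairpins. They have been studied above all in endothelial and smooth muscle cells and in tumours. The mature strands are shown because the 6 genes were reported as targets of both. The sequences are those of RefSeq for the rat (build GRCr8), 5′ to 3′, with the seed, bases 2 to 8, in capitals.
rno-miR-222-3p: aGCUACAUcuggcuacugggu
rno-miR-221-3p: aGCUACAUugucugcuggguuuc
The miR-222 strand lies at chrX:6022682-6022702 and the miR-221 strand at chrX:6023246-6023268, both on the plus strand. The seed GCUACAU occurred in 2 of the 693 mature rat microRNAs in the RefSeq table, these 2, and a site that pairs with it reads AUGUAGC. The strands shared their first 8 bases and 11 of 21 bases when compared position by position. The hairpin of the rat gene shows where the mature miR-222 strand, in capitals, sits in the natural precursor.
Mir222 hairpin: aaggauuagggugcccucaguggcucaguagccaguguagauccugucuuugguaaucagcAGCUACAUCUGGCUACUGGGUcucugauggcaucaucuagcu
The sources used here do not give the sequence of the transfected precursor, and no probe set here paired with Mir222 alone, so the level reached by the microRNA was not analysed here.

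Of the 6 genes, 5 fell with miR-222 and 1, Pik3r1, did not pass the test (limma, p-values adjusted over all 29170 probe sets, threshold 0.05). Over all 14506 genes 24.7% passed, 13.0% lower and 11.7% higher. The largest falls were those of Trps1, by 30.6%, and Arnt, by 30.0%. Ets1 fell by 20.3%, Tcf12 by 15.3% and Ppp2r2a by 13.8%. All 4 miR-222 values lay below all 4 control values in these 5 genes, a separation seen in 17.0% of all genes. The median log2 fold change of the 6 was -0.28, against 0.01 over all genes. The 6 genes were chosen with earlier results of these data known, so these contrasts are a description and not a test. Fold changes are differences of mean log2 intensity, miR-222 minus control, given with the SE (standard error) and 95% interval of the fit, n = 4 in each group. The labels do not say whether the arrays of a group stem from different cultures, and the p-values therefore reflect the spread between these arrays alone, which may be technical.

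**Figure D1:**
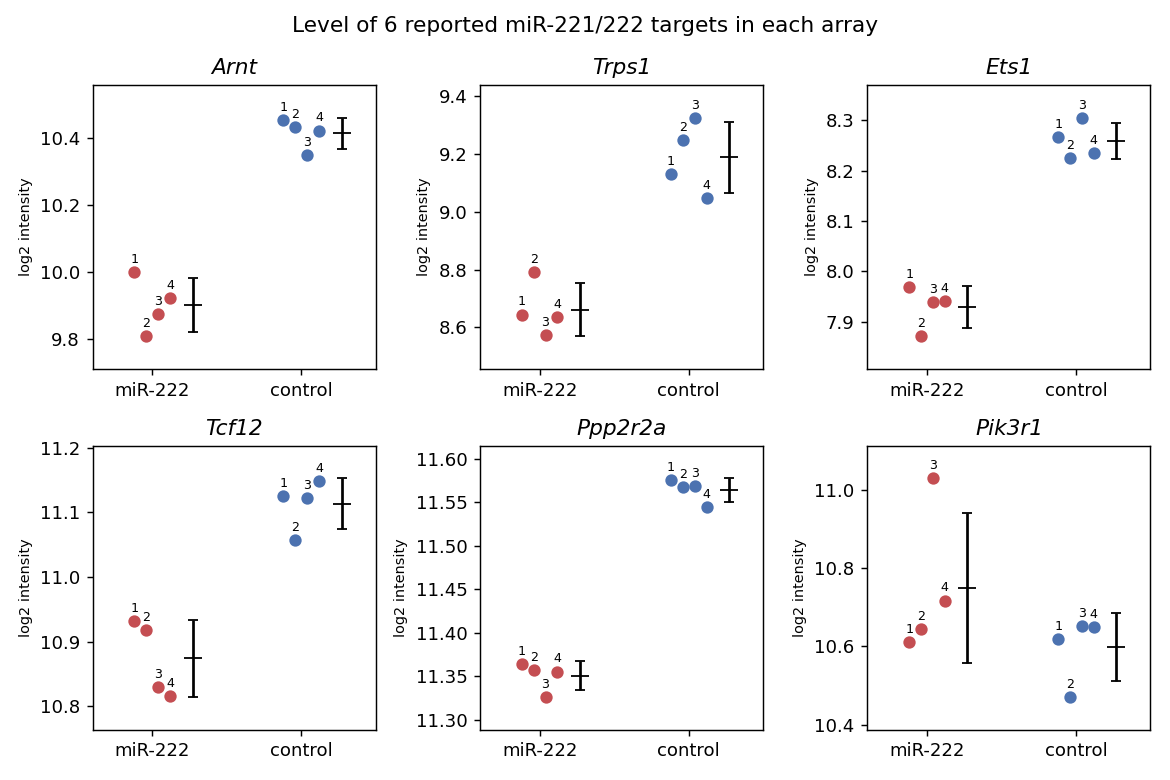
Level of each gene in each array on the log2 intensity scale, with miR-222 arrays in red, control arrays in blue and the replicate number beside each point; bars give mean ± SD (n = 4), and the vertical axes do not start at 0. In 5 genes the 4 miR-222 arrays lie below the 4 control arrays, while for Pik3r1 the groups overlap and miR-222 replicate 3 lies highest at 11.03.

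The median intensity of the arrays was 202 to 219. Arrays correlated at 0.989 to 0.993 within groups and 0.983 to 0.989 between groups. All 14 markers of cardiomyocytes were measured, and none of them read below 3258 in any array. In bulk samples such as these, fewer cells of a type and less RNA per cell cannot be told apart.

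Arnt encodes a factor of the bHLH-PAS family that is also known as HIF-1β. It is the partner with which the oxygen-regulated factors HIF-1α and HIF-2α and the dioxin receptor AHR bind DNA. Its intensity was 1025, 897, 939 and 969.7 in miR-222 replicates 1 to 4, against 1404, 1384, 1304 and 1373 in control replicates 1 to 4. The groups lay apart, with 0.35 log2 units between the highest miR-222 array and the lowest control array, the widest gap among the 6. The means were 9.90 ± 0.08 log2 units with miR-222 and 10.42 ± 0.05 in control cells (SD, n = 4 each). The log2 fold change was -0.51 (SE 0.05, interval -0.63 to -0.39, limma adjusted p = 4.48e-04). Among all genes, 3.05% had a more negative fold change.

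The partners of Arnt went both ways. Of 19 other measured genes among its partners, relatives and the oxygen sensing enzymes, 3 rose, 6 fell and 10 did not pass. Their median was 0.00, and the shares over all genes were 11.7% higher and 13.0% lower. Epas1, which encodes HIF-2α, rose by 0.62 (SE 0.08, limma adjusted p = 0.00123) and Hif1a, which encodes HIF-1α, by 0.34 (SE 0.04, limma adjusted p = 5.64e-04). Npas2, a relative of Clock, rose by 0.25, whereas Clock, the circadian partner of Bmal1, fell by 0.32. Ahr fell by 0.30, and so did Hif1an, the asparaginyl hydroxylase that inhibits HIF, by 0.23. Close to the threshold, Bmal2 fell by 0.32 (SE 0.09, limma adjusted p = 0.0492) and Vhl by 0.19 (SE 0.06, limma adjusted p = 0.0475). Bmal2 and Vhl were not followed singly with arrays left out. Ahr, Hif1an, Bmal2 and Vhl were picked once their values were known, as were the genes said below to complete a count. The closest relative, Arnt2, fell by 0.20 (SE 0.06, limma adjusted p = 0.0437), with means of 7.26 ± 0.09 with miR-222 and 7.46 ± 0.06 in control cells (SD, n = 4 each). The call of Arnt2 was kept without miR-222 replicate 1 and lost without each of the other 7 arrays (highest adjusted p 0.106). It was also lost with quantile normalization, median centring, trend and robust, and array weights (limma adjusted p = 0.0645, 0.0683, 0.0871 and 0.0696). The count of 6 lower genes was 3 without miR-222 replicate 3 or 4 or control replicate 2, 3 or 4.

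Genes that complexes containing Arnt are known to induce showed no common direction. Of 23 measured, 3 rose, 2 fell and 18 did not pass, with a median of -0.03. Over all genes 11.7% rose and 13.0% fell. The hexokinase gene Hk2 rose by 0.82 (SE 0.18, limma adjusted p = 0.0155), Adm, which encodes the vasodilator adrenomedullin and is named to complete the count, by 0.79 (SE 0.22, limma adjusted p = 0.0410, lost without miR-222 replicate 1 or 2 or any of the 4 control arrays, highest adjusted p 0.103), and the glucose transporter gene Slc2a1 by 0.28 (SE 0.07, limma adjusted p = 0.0296). Of the genes driven by AHR, Nqo1, an oxidoreductase that NRF2 also controls, fell by 0.54 (SE 0.07, limma adjusted p = 0.00181) and the cytochrome P450 gene Cyp1a1 by 0.39 (SE 0.11, limma adjusted p = 0.0367). Cyp1b1, another cytochrome P450 gene driven by AHR and picked once its value was known, was at 0.00 (SE 0.05, limma adjusted p = 0.997). The call of Slc2a1 was kept without replicate 4 of either group and lost without each of the other 6 arrays (highest adjusted p 0.0818). That of Cyp1a1 was kept without miR-222 replicate 3 or 4 and lost without each of the other 6 arrays (highest adjusted p 0.0908). The 3 higher genes were 1 without miR-222 replicate 1 or 2 or control replicate 1, 2 or 3, and the lower genes numbered 5 without miR-222 replicate 3.

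Trps1 encodes a zinc finger protein of the GATA type that represses transcription and is known for its part in the growth of bone and hair. Its report as a target of miR-221 and miR-222 came from breast cancer cells. Its intensity was 400.2, 443, 381 and 397.5 in miR-222 replicates 1 to 4, against 561, 608, 641 and 529 in control replicates 1 to 4. The groups did not overlap, and miR-222 replicate 2 was the highest and replicate 3 the lowest of the miR-222 arrays. The means were 8.66 ± 0.09 log2 units with miR-222 and 9.19 ± 0.12 in control cells (SD, n = 4 each), which is the widest control spread of the 6. The log2 fold change was -0.53 (SE 0.07, interval -0.70 to -0.36, limma adjusted p = 0.00206), and 2.88% of all genes had a more negative one.

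Of 11 other genes of GATA-type factors and their FOG cofactors, 2 rose, 2 fell and 7 did not pass. Their median was 0.08, and over all genes 11.7% rose and 13.0% fell. Gata4, a factor that drives cardiomyocyte genes, fell by 0.17 (SE 0.04, limma adjusted p = 0.0216), and Gata5 fell by 0.18 (SE 0.04, limma adjusted p = 0.0169). The related cardiac factor gene Gata6 measured -0.10 (SE 0.06, interval -0.23 to 0.03, limma adjusted p = 0.264) and did not pass. The cofactor gene Zfpm1 rose by 0.19 and Gatad1 by 0.19, and neither passed after median centring of the arrays (limma adjusted p = 0.0883 and 0.111). The call of Gata5 was lost without control replicate 1 (adjusted p = 0.0576), that of Gata4 without miR-222 replicate 1 or control replicate 1, 2 or 3 (highest adjusted p 0.0663), and that of Gatad1 without miR-222 replicate 1 or any of the 4 control arrays (highest adjusted p 0.0619).

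Ets1 encodes the founding member of the ETS factors, which bind DNA at GGAA cores and act downstream of Ras and MAP kinase signals. It is abundant in lymphocytes and in endothelium, and endothelial cells are where it was reported as a target. Its intensity was 251, 234, 245 and 246 in miR-222 replicates 1 to 4, against 308, 299, 316 and 301 in control replicates 1 to 4. Each miR-222 array lay below each control array, and 0.26 log2 units separated the groups. The means were 7.93 ± 0.04 log2 units with miR-222 and 8.26 ± 0.04 in control cells (SD, n = 4 each). The log2 fold change was -0.33 (SE 0.04, interval -0.42 to -0.23, limma adjusted p = 0.00114), and 7.34% of all genes had a more negative one.

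Most of the other ETS factor genes did not pass the test, as was so for all genes, of which 11.7% rose and 13.0% fell. Of 23 measured, 1 rose, 2 fell and 20 did not pass, with a median of 0.04. Etv5, a factor induced by ERK signalling, fell by 0.47 (SE 0.07, limma adjusted p = 0.00202) and Fli1, a factor of endothelium and blood cells, by 0.22 (SE 0.07, limma adjusted p = 0.0487). Elk4, a partner of serum response factor, rose by 0.41 (SE 0.05, limma adjusted p = 6.92e-04). The closest relative, Ets2, averaged 9.97 ± 0.03 log2 units with miR-222 and 9.85 ± 0.04 in control cells (SD, n = 4 each). Its log2 fold change of 0.12 (SE 0.04, interval 0.03 to 0.21) did not pass (limma adjusted p = 0.0743), and it did pass at 0.12 to 0.13 under 4 of the other processing settings. The call of Fli1 was lost without miR-222 replicate 2, 3 or 4 or control replicate 1, 2 or 4 (highest adjusted p 0.120), and with mean probe sets per gene, trend and robust, or array weights (limma adjusted p = 0.05003, 0.0649 and 0.05005).

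Of 18 measured genes reported to be controlled by Ets1, 1 rose, 4 fell and 13 did not pass. Their median was -0.09, and over all genes 11.7% rose and 13.0% fell. Kdr, which encodes the endothelial receptor VEGFR2, fell by 1.51 (SE 0.09, limma adjusted p = 5.27e-05), the gelatinase gene Mmp2 by 0.26 (SE 0.05, limma adjusted p = 0.00775), the chemokine gene Ccl2 by 0.43 (SE 0.10, limma adjusted p = 0.0209) and the adhesion gene Vcam1 by 0.33 (SE 0.08, limma adjusted p = 0.0216). Spp1, which encodes osteopontin and is named to complete the count, rose by 0.20 (SE 0.05, limma adjusted p = 0.0300, highest adjusted p 0.0791 with 1 array left out). The 4 lower genes were 2 without control replicate 1 or 2. The call of Ccl2 was lost without control replicate 1, 2 or 4 (highest adjusted p 0.0607) and that of Vcam1 without miR-222 replicate 4 or control replicate 1, 2 or 3 (highest adjusted p 0.0636). No gene was higher without miR-222 replicate 1, 2 or 3 or control replicate 2 or 4, or after median centring.

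Tcf12 encodes an E protein, also called HEB. E proteins are broadly expressed bHLH factors that pair with tissue factors such as Twist and Hand and are held inactive by Id proteins. Its intensity was 1953, 1935, 1819.7 and 1803 in miR-222 replicates 1 to 4, against 2235, 2132, 2228 and 2270.0 in control replicates 1 to 4. The groups did not overlap, and the gap of 0.13 log2 units between them was the narrowest among the 5 genes that fell. The means were 10.87 ± 0.06 log2 units with miR-222 and 11.11 ± 0.04 in control cells (SD, n = 4 each). The log2 fold change was -0.24 (SE 0.05, interval -0.34 to -0.14, limma adjusted p = 0.00773), and 11.6% of all genes had a more negative one.

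Of 14 other measured genes of E proteins, Id proteins and tissue bHLH factors, 1 rose, 4 fell and 9 did not pass. Their median was -0.07, and over all genes 11.7% rose and 13.0% fell. Id1 fell by 0.83 (SE 0.04, limma adjusted p = 4.41e-05) and Id3 by 0.60 (SE 0.06, limma adjusted p = 5.20e-04), both inhibitors of E proteins and both targets of BMP signalling. Of the 2 Hand genes, which pattern the heart chambers, Hand1 rose by 0.31 (SE 0.06, limma adjusted p = 0.0115) and Hand2 fell by 0.24 (SE 0.05, limma adjusted p = 0.0165). Among the other E proteins, Tcf4 fell by 0.18 (SE 0.04, interval -0.28 to -0.08, limma adjusted p = 0.0206), whereas Tcf3 measured -0.14 (SE 0.06, interval -0.28 to -0.01) and did not pass (limma adjusted p = 0.142). The call of Tcf4 was lost without miR-222 replicate 1 or control replicate 1 or 3 (highest adjusted p 0.0650).

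Ppp2r2a encodes B55α, a regulatory subunit that steers the phosphatase PP2A to its substrates, among them the kinase Akt and proteins phosphorylated in mitosis. Its intensity was 2636, 2624, 2568 and 2620.1 in miR-222 replicates 1 to 4, against 3053, 3036, 3037 and 2989 in control replicates 1 to 4. The arrays of a group lay closer together than for any other of the 6 genes, and the groups were 0.18 log2 units apart. The means were 11.35 ± 0.02 log2 units with miR-222 and 11.56 ± 0.01 in control cells (SD, n = 4 each). The log2 fold change was -0.21 (SE 0.03, interval -0.29 to -0.13, limma adjusted p = 0.00371), the smallest of the 5 falls, and 13.4% of all genes had a more negative one.

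PP2A is built from a scaffold, a catalytic and a regulatory subunit, and its other genes went both ways. Of 20 measured subunits and regulators, 4 rose, 4 fell and 12 did not pass, with a median of -0.02. Among all genes 11.7% rose and 13.0% fell. Ppp2r2b, which encodes the related subunit B55β, fell by 0.65 (SE 0.08, interval -0.84 to -0.46, limma adjusted p = 0.00132), with means of 7.94 ± 0.16 log2 units with miR-222 and 8.58 ± 0.07 in control cells (SD, n = 4 each). Ppp2r2d, which encodes B55δ, measured -0.07 (SE 0.05, interval -0.19 to 0.04) and did not pass (limma adjusted p = 0.367). Anp32a, which encodes an inhibitor of PP2A, fell by 0.44 (SE 0.04, limma adjusted p = 3.04e-04) and striatin, Strn, a regulatory subunit that binds calmodulin, by 0.33 (SE 0.04, limma adjusted p = 0.00165). The catalytic subunit gene Ppp2cb, named to complete the count, fell by 0.26. The scaffold gene Ppp2r1b rose by 0.36 (SE 0.05, limma adjusted p = 0.00254). The other 3 that rose, named to complete the count, were the regulatory subunit genes Ppp2r5a at 0.26 and Ppp2r5b at 0.21 and Igbp1, which encodes a protein that holds the free catalytic subunit, at 0.23. The 4 higher genes were 2 without control replicate 2 or 3 and after median centring. The call of Ppp2r5a was lost without miR-222 replicate 4 or control replicate 2 or 3 (highest adjusted p 0.0556) and that of Ppp2r5b without miR-222 replicate 1 or 2 or control replicate 2, 3 or 4 (highest adjusted p 0.0700). Both Ppp2r5b and Igbp1 lost their call after median centring (limma adjusted p = 0.0780 and 0.0665).

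Pik3r1 encodes p85α, the regulatory subunit that stabilises the catalytic subunit of class I PI 3-kinase and brings it to activated receptors. It is the gene among the 6 whose groups overlapped. Its intensity was 1563, 1600.1, 2088 and 1683 in miR-222 replicates 1 to 4, against 1573, 1419.8, 1611 and 1606 in control replicates 1 to 4. The value of miR-222 replicate 3 stood above all other arrays, and miR-222 replicates 1 and 2 lay within the range of the control arrays. The means were 10.75 ± 0.19 log2 units with miR-222 and 10.60 ± 0.09 in control cells (SD, n = 4 each). The log2 fold change of 0.15 (SE 0.10, interval -0.07 to 0.37) did not pass (limma adjusted p = 0.341). It was 0.06 without miR-222 replicate 3 and 0.11 to 0.20 without any other array.

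Other genes of PI 3-kinase subunits and the Akt arm that passed were mostly higher. Of 20 measured genes of its subunits and of the Akt arm, 7 rose, 1 fell and 12 did not pass. Their median was 0.07, and over all genes 11.7% rose and 13.0% fell. Pik3r2, which encodes the related subunit p85β, rose by 0.79 (SE 0.07, interval 0.63 to 0.94, limma adjusted p = 2.48e-04), with means of 9.20 ± 0.11 log2 units with miR-222 and 8.41 ± 0.08 in control cells (SD, n = 4 each). Pik3r3, which encodes p55γ, measured -0.01 (SE 0.09, interval -0.20 to 0.19) and did not pass (limma adjusted p = 0.976). Pdpk1, the kinase that activates Akt, rose by 0.39 (SE 0.05, limma adjusted p = 8.28e-04) and the lipid phosphatase gene Inpp4a by 0.37 (SE 0.04, limma adjusted p = 6.33e-04). Phlpp2, a phosphatase of Akt, was the gene that fell, by 0.51 (SE 0.06, limma adjusted p = 0.00103). Its relative Phlpp1 rose by 0.20 (SE 0.06, limma adjusted p = 0.043). Also higher were Pik3cb at 0.25, Akt2 at 0.19 and Akt1 at 0.15. Phlpp1, Pik3cb, Akt2 and Akt1 are named to complete the count and were not followed singly with arrays left out. The 7 higher genes were 4 after median centring, and 2 genes rather than 1 were lower without miR-222 replicate 3.

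**Figure D2:**
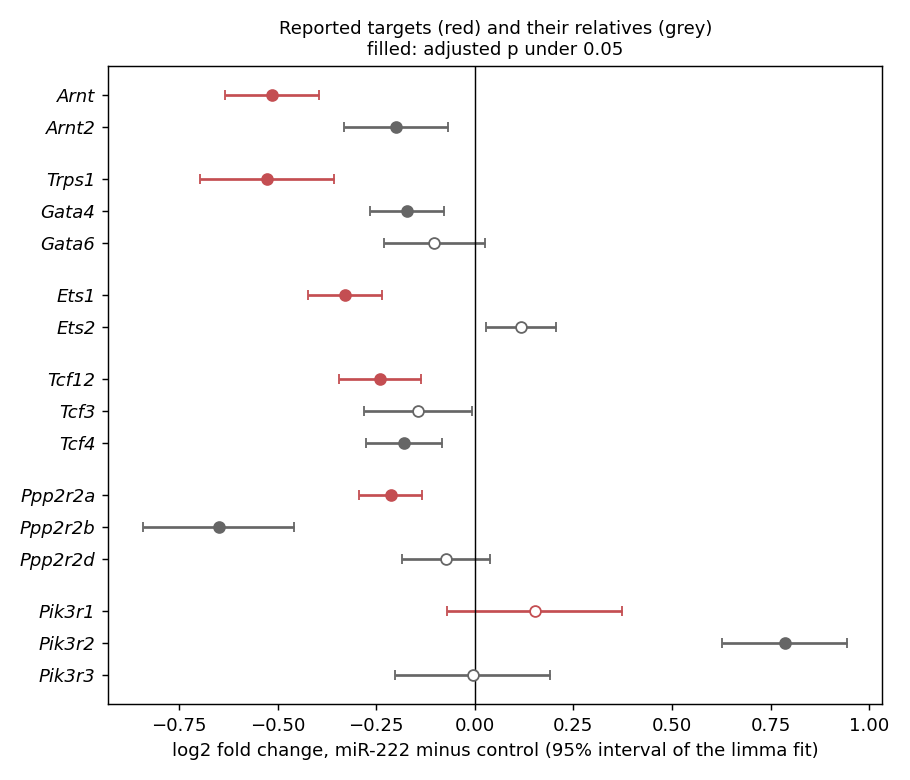
Log2 fold change, miR-222 minus control, of the 6 genes (red) and their closest relatives (grey), with the 95% interval of the limma fit and filled points for adjusted p under 0.05. Arnt at -0.51, Trps1 at -0.53 and Ets1 at -0.33 lie left of their relatives, Ppp2r2a at -0.21 lies between Ppp2r2d and Ppp2r2b, and Pik3r2 at 0.79 lies far right of Pik3r1.

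The differences in fold change between a gene and its relatives were not tested. The interval of Arnt did not overlap that of Arnt2, and the same held for Ets1 with Ets2, for Trps1 with Gata4 and Gata6, for Ppp2r2a with Ppp2r2b and for Pik3r1 with Pik3r2. The interval of Tcf12 overlapped those of Tcf3 and Tcf4, that of Ppp2r2a overlapped that of Ppp2r2d, and that of Pik3r1 overlapped that of Pik3r3.

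A wider set of 34 measured genes reported as targets of miR-221 and miR-222, without the 6, went both ways. Of these, 5 rose, 11 fell and 18 did not pass, with a median of -0.01, while over all genes 11.7% rose and 13.0% fell. The list includes Hipk1 and Hipk2, targets for which this study is known, so for them it is no independent evidence of direction. The adiponectin receptor gene Adipor1 fell by 1.21 (SE 0.05, limma adjusted p = 1.73e-05), Hipk2, a kinase acting on p53, by 1.22 (SE 0.07, limma adjusted p = 5.14e-05), the receptor kinase gene Kit by 0.97 and the metalloproteinase inhibitor gene Timp3 by 0.73. Each of these 4 falls was larger than any among the 6 genes. The members that rose, named to complete the count, were the DNA repair gene Mgmt at 0.52, Mdm2, the ubiquitin ligase of p53, at 0.33, Cdkn1c, the gene of the cell cycle inhibitor p57, at 0.36, the cytokine signalling gene Stat5a at 0.27 and Rb1, the retinoblastoma tumour suppressor, at 0.26. The call of Rb1 was kept only without miR-222 replicate 2 or control replicate 4 and that of Cdkn1c only without control replicate 2 (highest adjusted p 0.0904 and 0.104). The call of Rb1 was also lost after median centring (limma adjusted p = 0.0625). The count of 5 higher genes was 3 without miR-222 replicate 1, 3 or 4 or control replicate 1 or 3.

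**Figure D3:**
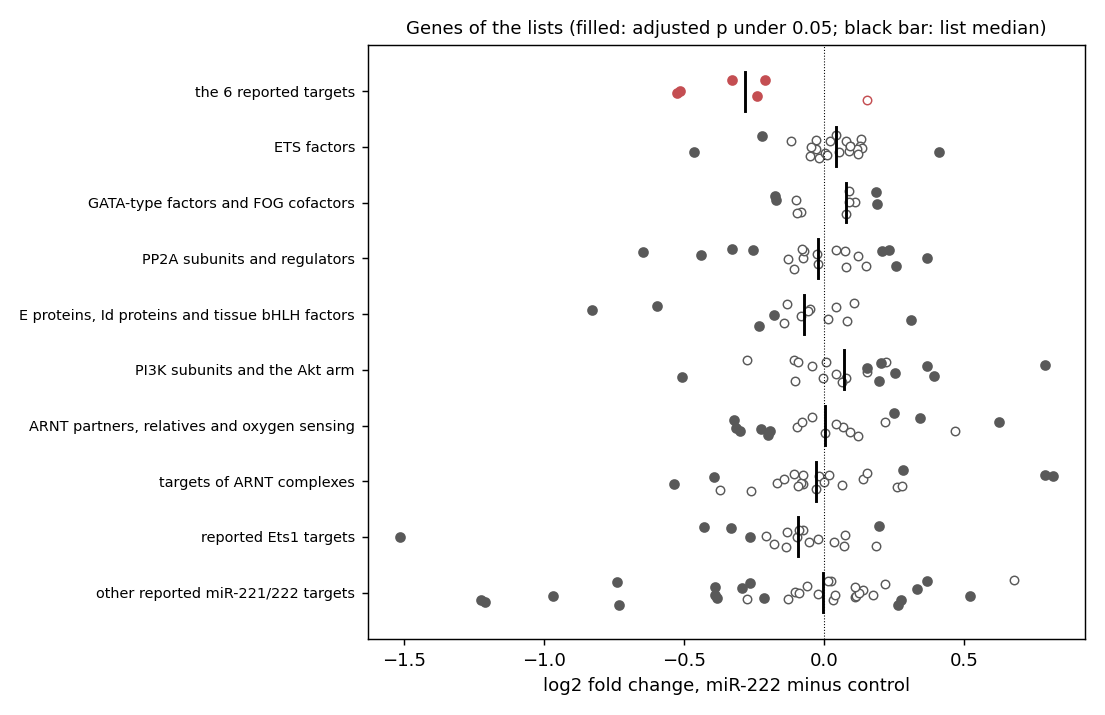
Log2 fold changes, miR-222 minus control, of the 6 genes (red) and of the other measured genes of each list (grey), with filled points for adjusted p under 0.05 and a black bar at the list median. The 6 genes have a median of -0.28, while the medians of the other 9 lists drawn lie between -0.09 and 0.08. The 6 genes and the lists were chosen with earlier results of these data known, so this contrast is no test. The cell type marker lists are not drawn, and the fibroblast markers among them have a median of -0.21.

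Markers of other cell types that heart cell cultures can hold were lower in the same arrays, in part. The counts below stand beside 13.0% of all genes called lower and 11.7% called higher. Of 12 fibroblast markers, 5 fell, with a list median of -0.21, and their summed intensity was 11115 to 12585 with miR-222, against 13786 to 15187 in control cells. These were Lum at -0.89, Thy1 at -0.64, Fn1 at -0.62, Postn at -0.54 and, to complete the count, Ddr2 at -0.35. The fibroblast count was 3 without miR-222 replicate 1 or control replicate 3 or 4. Without any of these Postn and Ddr2 did not pass, and without control replicate 2 Postn and without control replicate 1 Ddr2 did not (highest adjusted p 0.0572 and 0.0631). Of 11 measured endothelial markers, 2, Kdr and Eng, fell, by 1.51 and 0.27, and the summed intensity was 2744 to 2902 with miR-222, against 3435 to 3704 in control cells. The other 9 did not pass. Kdr made up most of the difference in the sum. Without it, as a sum added after seeing the data, the levels were 2477 to 2610 with miR-222, against 2608 to 2803 in control cells, and the groups overlapped. Kdr, Flt1, Tie1, Tek and Cdh5 are in both this list and that of reported Ets1 targets. Of 8 smooth muscle markers, Tagln fell by 0.91 and Myocd by 0.43, and the other 6 did not pass. Myocd averaged an intensity of 4288 in control cells, and 4.92% of all genes were brighter. Which cell type gave the signal of these 8 genes, cardiomyocytes included, was not tested. A negative log2 fold change was seen in 5 of the 8, against 46.8% of all genes. The summed intensity of the 8 was 25157 to 28319 with miR-222, against 30670 to 31212 in control cells. Of 14 cardiomyocyte markers, Myh7 fell by 0.61, Ttn by 0.36, Nppa by 0.20 and Ryr2 by 0.14 and Nkx2-5 rose by 0.15, with sums of 117873 to 121101 with miR-222, against 128677 to 131283 in control cells. In all, 13 of the 14 had a negative log2 fold change, against 46.8% of all genes, with a list median of -0.08. With trend and robust, 9 rather than 4 were called lower. The calls of Ryr2 and Nkx2-5 were each lost without 7 of the 8 arrays (highest adjusted p 0.112 and 0.0943), all but miR-222 replicate 2 and miR-222 replicate 1. Quantile normalization also ended the call of Ryr2 and median centring that of Nkx2-5 (limma adjusted p = 0.0515 and 0.169). Of 12 macrophage and leukocyte markers C1qa rose by 0.26, a call lost without 7 of the 8 arrays, all but control replicate 4 (highest adjusted p 0.118), and with quantile normalization, median centring or trend and robust (highest adjusted p 0.0656), with sums of 1604 to 1866 with miR-222, against 1550.2 to 1658 in control cells. Of 5 Schwann and epicardial markers 0 passed in limma and 1 had an unadjusted p under 0.05, with sums of 994 to 1045 with miR-222, against 941 to 1061 in control cells. No marker was at 0 in any array. The part of these shifts in the fall of the 5 genes was not tested.

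Genes whose log2 values over the 8 arrays followed each of the 6 most closely were picked by Pearson's r, as a description. The groups lie apart in 5 of the 6 genes, so r there mainly carries the group difference. Nearest to Arnt were Cyb5d2, the translation factor gene Eif2s3 and Gpaa1, a gene of GPI anchor attachment, at r of 0.995 to 0.996. Nearest to Ets1 were Otulin, a deubiquitinase gene, Sike1 and the ribosome maturation gene Sbds, with log2 fold changes of -0.28, -0.36 and -0.34. Nearest to Trps1 were the phosphatase gene Dusp22, the lymphatic growth factor gene Vegfd and the scaffold gene Akap12, at -0.23, -0.58 and -0.31. Tcf12 was followed most closely by Abtb2, Luzp1 and the nucleolar gene Nolc1, and Ppp2r2a by Gipc1, the desaturase gene Scd2 and Ajuba. These 15 genes all fell at the threshold. Polr3g, Kat8 and Tgfbi lay nearest to Pik3r1, at r of 0.959 to 0.969, and like it they did not pass.

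The 5 falls held in each comparison with 1 array left out and under each other processing run. Without 1 array the limma adjusted p was at most 0.00282 for Arnt, 0.00649 for Ets1, 0.00874 for Trps1, 0.0176 for Ppp2r2a and 0.0290 for Tcf12. Arnt ranged from -0.55 to -0.48, Trps1 from -0.57 to -0.48, Ets1 from -0.34 to -0.31, Tcf12 from -0.26 to -0.22 and Ppp2r2a from -0.22 to -0.21. The exact permutation test over the 8 arrays gave an unadjusted two-sided p of 0.0286 for each of the 5, which is the smallest that 4 arrays against 4 can give. That value follows from the separation of the groups and adds no support of its own.

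**Figure D4:**
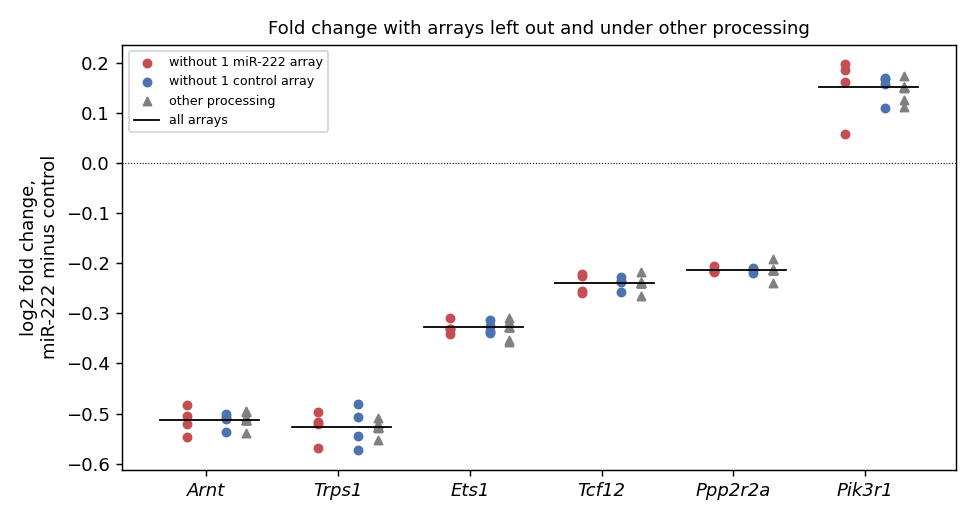
Log2 fold change, miR-222 minus control, of the 6 genes with all arrays (black line), without 1 miR-222 array (red), without 1 control array (blue) and under other processing (grey triangles). The 5 genes that fell stay below -0.19 throughout, and Pik3r1 spans 0.06 to 0.20.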

How the data were processed

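RNA was amplified to biotinylated cRNA by in vitro transcription, per the labels' protocols. The deposited table holds intensity values on a linear scale, from 0.8 to 16339, with medians of 202 to 219 per array. How the authors summarised and normalized these intensities is not stated in the labels. Genes were named from the Rat Gene 1.0 ST annotation through the table's identifiers, although the submitters name another rat array. Of 29170 probe sets, 15310 paired with 1 gene, 323 with several and 13537 with none. A gene was represented by the brightest probe set paired with it alone. Identifiers of 14481 genes were found in the RefSeq table, which changed 0 symbols.

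Values were taken as log2 with no pseudocount. The groups were set against each other, miR-222 minus control, by lmFit and eBayes of limma 3.58.1 (R 4.3.3), 2-sided, with Benjamini-Hochberg adjustment over all probe sets. The members and the 15 other lists were chosen with earlier results of these data known. Named were the 6 genes, their closest relatives, up to 4 further genes past the threshold per list by smallest p, and the 3 genes most like each of the 6. Further genes were named once their values were known, among them those said to complete a count. Replicates are numbered in the order of listing and are not paired. Detection calls and scanner files were not used here, and the number of arrays limits the precision. Tested on simulated data (29170 probe sets, 200 changed, 10 simulations), the fit recovered 14.0% of log2 changes of 0.25, 55.5% of 0.5 and 89.3% of 1. In the data 24.7% of genes passed, so the adjustment was stricter in the simulation, and these rates do not carry over to the data. Alternatives were quantile normalization, median centring, a pseudocount of 16, the upper 60% of probe sets, probe sets with 1 gene, mean probe sets per gene, eBayes with trend and robust, array weights, an exact permutation test and leaving out each array. Figures were drawn with matplotlib 3.10.9.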

Additional observations from a re-analysis of the deposited data

Results flagged for a closer look

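A single array stood apart from the other 3, beyond the 95% limit of Dixon's test, in 12 of 188 groups of 4. These groups were those of the 6 genes and 88 of the other named genes, and chance flags about 1 in 20. None of the 6 genes was among those flagged. All values are log2 intensities. Replicate 3 of miR-222 lay at 7.40 against 7.22 to 7.24 for Etv5, at 11.45 against 11.80 to 11.87 for Ccl2, at 9.43 against 9.55 to 9.56 for Ppp2r2d, at 10.11 against 9.11 to 9.16 for Adm and at 10.55 against 10.48 for Mdm2. Replicate 2 of miR-222 lay at 12.01 against 11.96 to 11.97 for Hif1a and at 9.39 against 9.49 to 9.51 for Otulin. Control replicate 2 lay at 9.59 against 9.65 for Luzp1, at 10.15 against 10.23 for Nolc1 and at 7.33 against 7.38 to 7.39 for Polr3g. Control replicate 3 lay at 7.54 against 7.43 to 7.44 for Arnt2, and control replicate 1 at 9.07 against 8.97 to 8.99 for Cyb5d2.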

How the results depend on the processing

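The 6 genes kept their direction and their side of the threshold under every alternative run, so 5 were lower each time. Some runs could not move the fold changes of the 6, only errors and p-values. These were mean probe sets per gene, probe sets of 1 gene, the upper 60% of probe sets, trend and robust, and the permutation test. The permutation p was unadjusted and, for the 5, fixed by the separation of their groups. No paired analysis was possible because the labels give no replicate numbers. Of the 79 other named genes past the threshold that were followed singly, 58 kept their call without any single array. Under the other processing runs as well, 56 kept it, and 0 reversed. Many were picked by small p or by likeness to 1 of the 6, so these shares do not describe the lists. Among other ETS factors the 2 lower were 1 with mean probe sets per gene, with trend and robust or with array weights, and the 1 higher was 2 with quantile normalization, with the upper 60% of probe sets, with probe sets of 1 gene and with trend and robust. Median centring left 0 of 2 higher GATA-type genes, 2 of 4 higher PP2A genes and 0 of 1 higher reported Ets1 targets. It left 4 of 7 higher genes of PI 3-kinase subunits and the Akt arm. In that list the 1 lower gene was 2 with the upper 60% of probe sets and with trend and robust. Trend and robust called 9 rather than 4 cardiomyocyte markers lower, and leaving Kdr out of the endothelial sum, an alternative added after seeing the data, left a mean difference of -193, against -736 with it. The cause of these moves was not tested. With single arrays left out, counts were 1 to 2 lower for ETS factors and 0 to 2 lower and 1 to 2 higher for GATA-type genes. For PP2A they were 2 to 4 higher, and for PI 3-kinase subunits and the Akt arm 1 to 2 lower. Counts were 3 to 5 lower for Arnt partners, and 1 to 5 lower and 1 to 3 higher for targets of Arnt complexes. For reported Ets1 targets counts were 2 to 5 lower and 0 to 1 higher, and for other reported targets 3 to 4 higher. Over all genes they were 1404 to 1834 lower and 1266 to 1570 higher. Fewer arrays give wider errors.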
